A study of Mus musculus with 10 samples.

Results

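Amino acid transporter genes were taken as the genes of 7 solute carrier families, SLC1, SLC3, SLC6, SLC7, SLC36, SLC38 and SLC43, that had a normalised read count of at least 10 in at least 2 libraries. The table held 50 genes of these families, and 49 of them passed, out of 15694 genes in all that passed the same filter. They comprised 6 genes of SLC1, 2 of SLC3, 14 of SLC6, 11 of SLC7, 3 of SLC36, 10 of SLC38 and 3 of SLC43. The gene that did not pass, Slc7a13, was listed at 0 in both NIC libraries and reached 10.3 normalised reads only in NIC-Prmt6 replicate 2. The rule used family names and a minimum level, and no difference between genotypes. It was chosen with earlier results of these data known.

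The samples are mammary epithelial cells of FVB mice, as 10 RNA-seq libraries with 4 genotypes: NIC-Prmt1 (3 libraries), NIC-Carm1 (3), NIC-Prmt6 (2) and NIC (2). Prmt1, Carm1 and Prmt6 encode protein arginine methyltransferases (PRMTs), and the series studied transgenic overexpression of each of them, so that every group carries NIC and 3 groups carry a PRMT transgene besides. The labels do not spell out NIC, and the sources used here do not give the promoter of the transgenes, the age of the animals or whether a library pools animals. Nothing states that replicates came from separate animals, so p-values measure the spread between these libraries, which may be technical. Glands were digested, the epithelium was enriched by pulse centrifugation, and libraries were made from poly-A RNA.

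Cells take up amino acids through carriers in the plasma membrane, and further carriers move them out of the lysosome. Some are exchangers that import an amino acid against the export of another, some are driven by sodium or protons, and the light chains of SLC7 reach the surface only when bound to a heavy chain of SLC3. In the mammary gland these carriers feed milk protein synthesis, and several of them are induced through the transcription factor ATF4 when amino acids are scarce.

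The recovered read total was between 21589274 and 30260921 per library, and the 49 transporter genes took 0.242% to 0.287% of it. Targeted genes were measured first. Carm1 averaged 2316 ± 167 normalised reads in NIC-Carm1 libraries and 1562 ± 7.33 in NIC libraries, but it was also above NIC in NIC-Prmt1 (2155 ± 140.1) and NIC-Prmt6 (2363 ± 97.4), so its level did not set the NIC-Carm1 libraries apart from these. Prmt6 averaged 891 ± 25.6 in NIC-Prmt6 and 419 ± 45.1 in NIC (both Carm1 in NIC-Carm1 and Prmt6 in NIC-Prmt6 past the limma threshold). Prmt1 averaged 2975 ± 278 in NIC-Prmt1 and 2876 ± 284 in NIC, with a limma log2 fold change of 0.05 ± 0.12 (SE) and an adjusted p of 0.784. The sources used here do not say whether the transgene's reads would be counted on the mouse gene. All 8 luminal epithelial markers were present, with a summed level of 6126 to 8164 CPM (recovered reads scaled to library size) in NIC-Prmt1, 6135 to 7114 in NIC-Carm1, 5683 to 5686 in NIC-Prmt6 and 9011 to 10647 in NIC. Epcam, Krt8, Krt18 and Cdh1 were below NIC in every PRMT library. Not all markers followed the sum. Krt19 was higher in NIC-Prmt1 (1058 to 1344 CPM, against 654 to 826 in NIC). In NIC-Carm1 Elf5 (281 to 456, against 192 to 207) and Kit (432 to 540, against 308 to 386) were higher than in NIC. Markers of other cells were present too. The 8 basal markers summed to 3525 to 6192 CPM in NIC-Prmt1, 1795 to 1961 in NIC-Carm1, 2243 in each NIC-Prmt6 library and 1594 to 1866 in NIC. The single markers differed in NIC-Prmt6. Acta2 (692 to 698 CPM, against 381 to 400 in NIC), Tagln, Myh11 and Oxtr lay above NIC. Krt14 (172 to 173, against 178 to 282), Krt17 and Trp63 lay below it, and Krt5 lay within its range. The 6 fibroblast markers summed to 4476 to 6159.6 in NIC-Prmt1, 3170.3 to 3673 in NIC-Carm1, 10897 to 10954 in NIC-Prmt6 and 2835 to 3487 in NIC. In these bulk libraries fewer cells of a type and less RNA per cell cannot be told apart.

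Several libraries stood apart from the rest. NIC-Prmt6 replicates 1 and 2 differed from each other by a chi-square of only 2.44 per degree of freedom, and NIC-Carm1 replicates 2 and 3 by 2.69, where the other 6 pairs within a group differed by 28.0 to 104.6. These pairs were kept as separate libraries in the main fit. They differed by more than sampling noise, but this does not show that they came from separate animals. The main counts of called genes below are therefore also given with each pair averaged into 1 library. NIC-Carm1 replicate 1 held 40400.1 CPM of milk gene reads, against at most 6532 in the other 9 libraries. NIC-Prmt1 replicate 1 held 768 CPM of skin keratinocyte markers and NIC-Prmt1 replicate 3 held 79.4, against at most 4.14 elsewhere. The 6 B and T cell markers summed to 38.7 CPM in NIC replicate 1 and 43.8 in NIC-Prmt1 replicate 2. They summed to 6.30 in NIC replicate 2 and to 6.22 and 6.32 in NIC-Prmt1 replicates 1 and 3. In NIC-Carm1 this sum was 18.1 to 22.9, and in NIC-Prmt6 6.71 to 7.39.

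Per kilobase of exon, which allows levels of different genes to be compared, the heavy chain Slc3a2 was the highest transporter gene, at a mean over the 4 genotypes of 3331 normalised reads per kilobase. Slc7a5 followed at 1482, Slc38a2 at 1397, Slc38a10 at 998, Slc7a2 at 764 and Slc6a8 at 653. At the low end stood Slc6a19, at 1.10. On the scale of normalised reads per gene, 12 genes averaged at least 1000, 23 averaged 100 to under 1000 and 14 averaged under 100, and the 3 most abundant held 44.6% of the summed value. The order of Slc7a2 and Slc7a5 depended on genotype. Slc7a2 had 1259.7 normalised reads per kilobase in NIC-Prmt1 and 345 in NIC, and Slc7a5 had 839 in NIC-Prmt1 and 2195 in NIC. The least variable gene was Slc38a10, whose highest library was 1.25 times its lowest, and 28 of the 49 genes varied at least 3-fold between their highest and lowest libraries. In 4 genes (Slc1a7, Slc38a5, Slc6a19 and Slc7a10) at least 1 library had 3 or fewer reads.

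**Figure D1:**
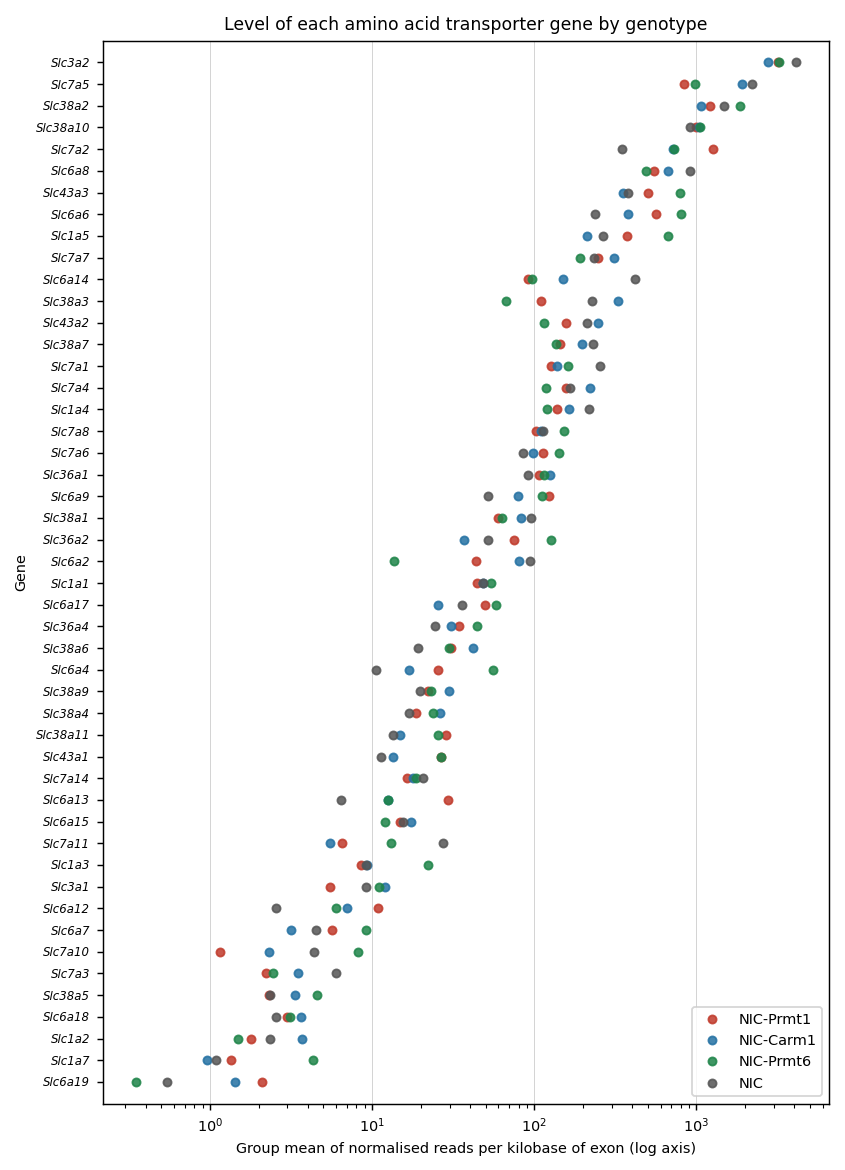
Group mean of normalised reads per kilobase of exon (log axis) for 48 of the 49 amino acid transporter genes, ordered by their mean, with a point per genotype. Slc3a2 lies at the top at 3331 on average and Slc6a19 at the bottom at 1.10, and the points of Slc38a10 nearly coincide while those of Slc6a14, Slc6a2 and Slc7a2 lie apart.

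Each PRMT genotype was set against NIC with limma on log2(value + 1), fitted over all 15694 genes with p-values adjusted after Benjamini and Hochberg and called under 0.05. The 3 comparisons share the same 2 NIC libraries. In NIC-Prmt1, 9 of the 49 transporter genes were higher than in NIC and 9 were lower, 36.7% of the genes, against 29.6% of all genes tested (15.2% higher, 14.4% lower). In NIC-Carm1, 4 were higher and 4 were lower, 16.3% of the genes, which is close to the 16.0% of all genes called there (6.65% higher, 9.36% lower). In NIC-Prmt6, 12 were higher and 11 were lower, 46.9%, against 36.8% of all genes (19.0% higher, 17.8% lower). Transporter genes with a called change of at least 2-fold numbered 12 in NIC-Prmt1, 3 in NIC-Carm1 and 14 in NIC-Prmt6. Those were 24.5%, 6.12% and 28.6% of the 49, where 9.05%, 3.70% and 13.6% of all genes had such a change in the same comparisons.

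Transporter genes as a group did not lie to either side in NIC-Prmt1 or NIC-Carm1. Their median log2 fold change was -0.02 in NIC-Prmt1 and 0.01 in NIC-Carm1, where the median over all genes was close to 0, and it was 0.32 in NIC-Prmt6, where that over all genes was -0.01. The median size of change, without sign, was 0.53 for transporters and 0.36 for all genes in NIC-Prmt1, 0.44 and 0.28 in NIC-Carm1, and 0.85 and 0.43 in NIC-Prmt6. With the near-identical libraries averaged, 15, 2 and 7 transporter genes were called in NIC-Prmt1, NIC-Carm1 and NIC-Prmt6, which is 30.6%, 4.08% and 14.3% of them, against 16.6%, 2.17% and 10.9% of all genes. Each of the calls was also computed under 21 alternatives (another test or scaling, other filters, the averaging, and each library left out). In NIC-Prmt1 8 calls held under every one of them, in NIC-Carm1 2 and in NIC-Prmt6 7. Without NIC-Prmt1 replicate 1, the library with skin markers, 9 genes were higher and 8 lower in NIC-Prmt1. Without NIC-Carm1 replicate 1, the library rich in milk reads, 8 were higher and 4 lower in NIC-Carm1. Other single libraries moved the counts too. Without NIC replicate 1 or 2, 5 were lower in NIC-Prmt1, and without NIC replicate 2, 5 were higher. In NIC-Carm1 8 were also higher without NIC-Prmt1 replicate 1, 1 without NIC-Carm1 replicate 2 or 3, and 2 without either NIC or either NIC-Prmt6 library. In NIC-Prmt6 6 were higher without either of its libraries. The lower count there was 6 without NIC replicate 1, 4 without NIC replicate 2 or NIC-Prmt6 replicate 2, and 3 without NIC-Prmt6 replicate 1.

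**Figure D2:**
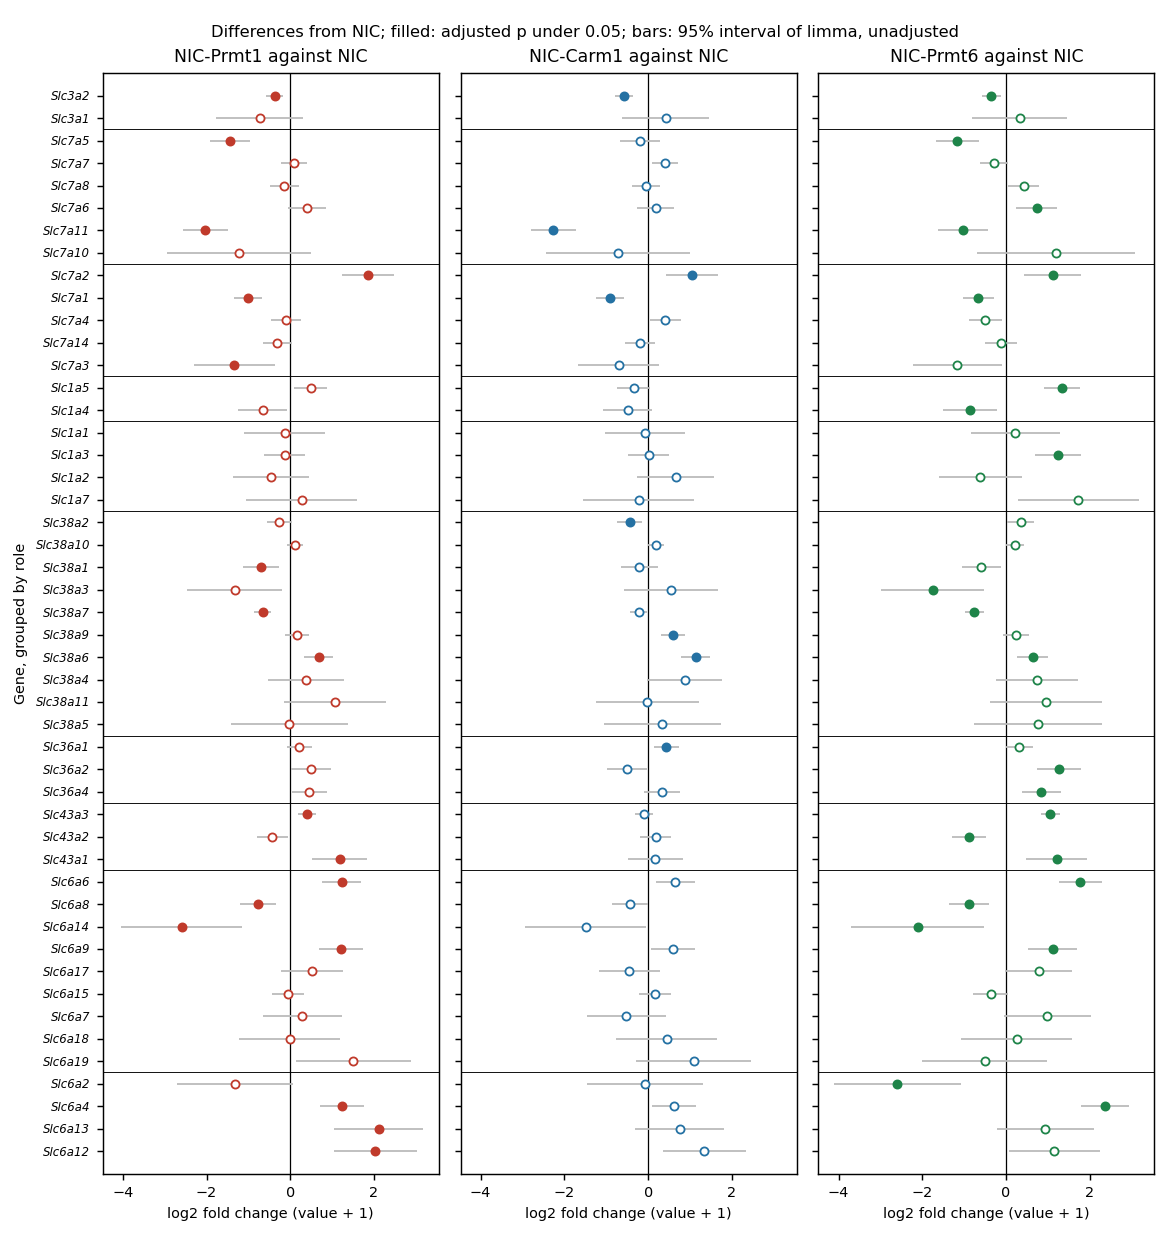
log2 fold change against NIC of 48 of the 49 amino acid transporter genes in NIC-Prmt1, NIC-Carm1 and NIC-Prmt6, grouped by role, with 95% intervals from limma that are not adjusted for multiple tests; filled points have an adjusted p under 0.05. Slc7a11 lies left of 0 and Slc7a2 right of 0 with filled points in all 3 panels, and Slc6a4 and Slc6a6 lie farthest right among the filled points of NIC-Prmt6.

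Among the 2 heavy and 6 light chains, the heavy chain Slc3a2 and the light chains Slc7a5 and Slc7a11 had the most calls. Slc3a2 (chr19:8706882-8723369, mm10, minus strand) encodes 4F2hc (CD98), the heavy chain that carries SLC7 light chains to the surface. It had 12172, 10389 and 11326 normalised reads in NIC-Prmt1, 9896, 9693 and 9649 in NIC-Carm1, 11413 and 11388 in NIC-Prmt6, and 14733 and 14424 in NIC. All 8 PRMT libraries lay below both NIC libraries. By limma its log2 fold change was -0.37 ± 0.09 in NIC-Prmt1 (SE, adjusted p = 0.0163), -0.58 ± 0.09 in NIC-Carm1 (0.00446) and -0.35 ± 0.10 in NIC-Prmt6 (0.0221). All 3 calls ended with the near-identical libraries averaged (0.0722, 0.0705 and 0.186). In NIC-Prmt1 and NIC-Prmt6 the call also ended without NIC replicate 1 or 2, in NIC-Prmt6 also without replicate 1 or 2 of its own, and in NIC-Prmt1 when its 2 groups were fitted alone. Adjusted p over the alternatives ran between 3.46e-04 and 0.089 in NIC-Prmt1, between 6.34e-09 and 0.0705 in NIC-Carm1 and between 0.00138 and 0.186 in NIC-Prmt6.

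Slc7a5 (chr8:121881150-121907694, minus strand) encodes LAT1, the light chain that imports leucine and other large neutral amino acids. Its libraries read 2102, 3970.1 and 3264 normalised reads in NIC-Prmt1, 6391, 7641 and 7259 in NIC-Carm1, 3691 and 3584 in NIC-Prmt6, and 7685 and 8593 in NIC. All libraries of NIC-Prmt1 and NIC-Prmt6 lay below the lowest of NIC-Carm1, and the NIC-Carm1 libraries lay below both NIC libraries. The fall was -1.43 ± 0.21 on the log2 scale in NIC-Prmt1 (limma, adjusted p = 0.00188, past the threshold in all 21 alternatives) and -1.16 ± 0.23 in NIC-Prmt6 (0.00465). In NIC-Prmt6 the call ended only with the near-identical libraries averaged (0.0559, the highest over the alternatives, the lowest being 1.34e-05). In NIC-Carm1 the log2 fold change was -0.20, with a 95% interval of -0.68 to 0.28 and an adjusted p of 0.565 in limma. Read against its heavy chain within each library, Slc7a5 had 0.267 ± 0.0999 normalised reads per kilobase for each of Slc3a2 in NIC-Prmt1, 0.694 ± 0.0705 in NIC-Carm1, 0.304 ± 0.00583 in NIC-Prmt6 and 0.532 ± 0.0499 in NIC (SD, n = 3, 3, 2 and 2).

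Slc7a11 (chr3:49892526-50443614, minus strand) encodes xCT, which brings in cystine, a source of cysteine for glutathione, in exchange for glutamate. Its values were 103, 73.5 and 97.1 normalised reads in NIC-Prmt1, 66.5, 79.0 and 85.3 in NIC-Carm1, 197 and 169 in NIC-Prmt6, and 472 and 291 in NIC. Every PRMT library lay below both NIC libraries, with those of NIC-Prmt6 in between. The log2 fold change in limma was -2.03 ± 0.24 in NIC-Prmt1 (adjusted p = 8.54e-04) and -2.26 ± 0.24 in NIC-Carm1 (7.81e-04), and both calls held under all 21 alternatives. In NIC-Prmt6 it was -1.02 ± 0.27 (0.0148), a call that ended with the libraries averaged (0.108), without NIC replicate 1 and without either NIC-Prmt6 library (range 0.00127 to 0.108). At the start of Slc7a11 lie 2 copies of the core of the amino acid response element, the site that ATF4 binds with a C/EBP partner. The search used the letters TGATGNAA on both strands of windows running from 250 bases before to 50 bases after each RefSeq start (GRCm38.p6). Of 32841 windows in all, 3.97% hold a match. The 33 transporter genes with a window have 51 windows, and 4 of these hold a match. They belong to 3 genes, Slc7a11, Slc1a4 and Slc7a7, the last with 2 windows that overlap each other. For each gene 1 window is shown up to the first 10 bases after the start, with the matches in capitals.

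Slc7a11 promoter, chr3:50443604-50443863, minus strand: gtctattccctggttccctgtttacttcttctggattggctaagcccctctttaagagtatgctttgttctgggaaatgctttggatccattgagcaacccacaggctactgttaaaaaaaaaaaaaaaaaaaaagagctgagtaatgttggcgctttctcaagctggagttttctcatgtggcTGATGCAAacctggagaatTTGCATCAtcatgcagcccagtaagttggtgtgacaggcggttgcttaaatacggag
Slc1a4 promoter, chr11:20332704-20332963, minus strand: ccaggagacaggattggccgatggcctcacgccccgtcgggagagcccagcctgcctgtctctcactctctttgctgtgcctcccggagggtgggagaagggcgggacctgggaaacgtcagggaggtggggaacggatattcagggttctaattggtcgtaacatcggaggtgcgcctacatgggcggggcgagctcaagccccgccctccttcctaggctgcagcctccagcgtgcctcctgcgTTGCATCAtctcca
Slc7a7 promoter, chr14:54417935-54418194, minus strand: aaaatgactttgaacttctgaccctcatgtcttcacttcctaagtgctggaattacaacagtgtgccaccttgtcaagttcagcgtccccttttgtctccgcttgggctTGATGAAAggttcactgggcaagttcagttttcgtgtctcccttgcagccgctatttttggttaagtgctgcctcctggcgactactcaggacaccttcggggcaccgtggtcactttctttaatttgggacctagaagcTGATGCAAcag

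The matches of Slc7a11 span -66 to -59 on the strand of the gene and -47 to -40 on the other, counted from the start. Slc1a4 has a single match across its start, and the start of Slc7a7 shown here has 2. None of these overlapped a match to the antioxidant response element core, TGACNNNGC. That core was matched in 12.4% of all windows and in 9 of the 51 windows of transporter genes. The 3 genes had different values. Slc7a11 was lower than NIC in all 3 PRMT genotypes, Slc1a4 was called only in NIC-Prmt6, and Slc7a7, the light chain y+LAT1 that exchanges cationic for neutral amino acids, passed in no comparison with NIC (log2 fold changes 0.09, 0.41 and -0.29 in NIC-Prmt1, NIC-Carm1 and NIC-Prmt6). A match is a description of the letters only.

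Slc7a6, which encodes the light chain y+LAT2, had 607, 438 and 509 normalised reads in NIC-Prmt1, 590.2, 370.1 and 392 in NIC-Carm1, 652 and 647 in NIC-Prmt6, and 385 and 393 in NIC. Its call in NIC-Prmt6 (log2 0.74 ± 0.22, limma adjusted p = 0.0251) ended with the libraries averaged (0.127) and without any 1 of the NIC or NIC-Prmt6 libraries (range 0.00273 to 0.127). Slc7a8, the light chain LAT2, and Slc7a10, the light chain Asc-1 that carries serine and glycine, passed in no comparison with NIC by limma, edgeR or DESeq2, nor did the heavy chain Slc3a1. Slc7a10 had only 1.94 to 19.0 normalised reads. Part of the exons of Slc7a10 (17.9%), of Slc3a1 (26.5%) and of Slc7a7 (7.0%) overlap a gene on the other strand, and the sources used here do not give the strand setting of the counting.

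The cationic carriers of SLC7 moved in opposite directions. Slc7a1 (chr5:148327410-148399904, minus strand) encodes CAT1, the widely expressed importer of arginine and lysine. It had 1582, 1453 and 1370.3 normalised reads in NIC-Prmt1, 1989, 1378 and 1378 in NIC-Carm1, 1897 and 1829 in NIC-Prmt6, and 2955 and 2938 in NIC. All PRMT libraries lay below both NIC libraries, which were close to each other. Its log2 fold change was -1.01 ± 0.15 in NIC-Prmt1 (limma, adjusted p = 0.00186, held under all 21 alternatives), -0.92 ± 0.15 in NIC-Carm1 (0.00486) and -0.66 ± 0.16 in NIC-Prmt6 (0.0117). With the libraries averaged the NIC-Carm1 call ended at 0.0549 (range 4.36e-06 to 0.0549). The NIC-Prmt6 call ended then at 0.0822 and also without NIC replicate 2 and without either NIC-Prmt6 library (range 6.47e-04 to 0.0822).

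Slc7a2 (chr8:40862396-40922308, plus strand) encodes CAT2, a second carrier of arginine and lysine. Its values were 15388, 10440.4 and 8693 normalised reads in NIC-Prmt1, 4625, 7503 and 7599 in NIC-Carm1, 6666 and 6695 in NIC-Prmt6, and 2502 and 3799 in NIC. All PRMT libraries lay above both NIC libraries, and the 3 NIC-Prmt1 libraries were above all others. The log2 fold change was 1.86 ± 0.28 in NIC-Prmt1 (limma, adjusted p = 0.00191, held under all 21 alternatives), 1.06 ± 0.28 in NIC-Carm1 (0.031) and 1.12 ± 0.31 in NIC-Prmt6 (0.0177). The NIC-Carm1 call ended with the libraries averaged (0.163), with its 2 groups alone, and without NIC replicate 1, NIC-Carm1 replicate 2 or 3, or NIC-Prmt6 replicate 1 or 2 (range 0.00153 to 0.216). The NIC-Prmt6 call ended with the libraries averaged (0.105) and without NIC replicate 1 or NIC-Prmt6 replicate 1 or 2 (range 0.00159 to 0.117).

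Within each library the balance between these carriers shifted toward Slc7a2. Per kilobase of exon Slc7a2 had 12.3, 9.07 and 8.01 normalised reads for each of Slc7a1 in NIC-Prmt1, 2.93, 6.87 and 6.96 in NIC-Carm1, 4.43 and 4.62 in NIC-Prmt6, and 1.07 and 1.63 in NIC. The lowest PRMT library, NIC-Carm1 replicate 1, was the one rich in milk reads, and the highest, NIC-Prmt1 replicate 1, was the one with skin and the most basal marker reads; their part in the ratio was not tested. Slc7a3, encoding CAT3, had few reads (5.17 to 28.3 normalised reads) and was lower in NIC-Prmt1, a call that ended under 11 of the 20 alternatives that tested it. Slc7a4 and Slc7a14 passed in no comparison with NIC by limma, but DESeq2 called Slc7a4 in NIC-Prmt6 (limma adjusted p = 0.0544).

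**Figure D3:**
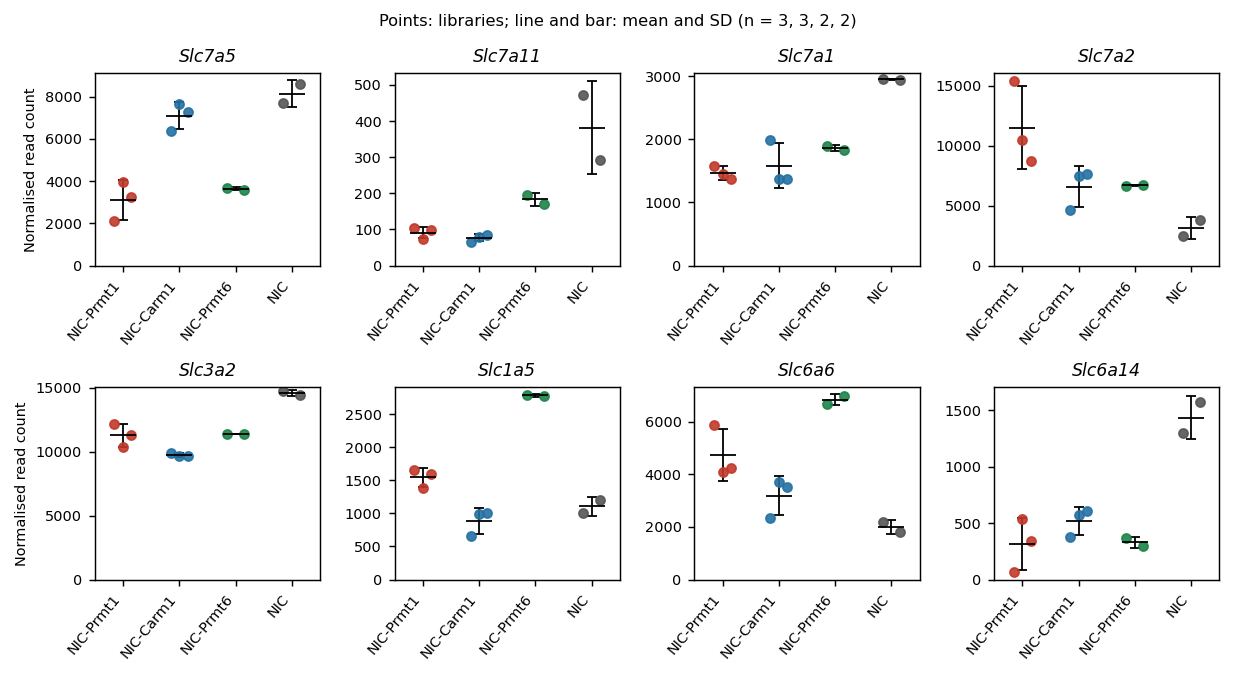
Normalised read count by genotype for 8 amino acid transporter genes, with a point per library and the mean and SD as lines (n = 3, 3, 2 and 2 for NIC-Prmt1, NIC-Carm1, NIC-Prmt6 and NIC). Slc7a5, Slc7a11, Slc7a1, Slc3a2 and Slc6a14 are highest in NIC, Slc7a2 is highest in NIC-Prmt1, and Slc1a5 and Slc6a6 are highest in NIC-Prmt6.

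Of the SLC1 family, Slc1a5 (chr7:16781340-16798274, plus strand) encodes ASCT2, an exchanger of glutamine and other neutral amino acids. It had 1665, 1383 and 1591 normalised reads in NIC-Prmt1, 659, 994 and 1007 in NIC-Carm1, 2798 and 2772 in NIC-Prmt6, and 1009 and 1204 in NIC. NIC-Prmt6 stood above all other libraries, NIC-Prmt1 above NIC, and NIC-Carm1 below NIC. Its log2 fold change was 1.34 ± 0.19 in NIC-Prmt6 (limma, adjusted p = 9.74e-04, held under all 21 alternatives), 0.48 ± 0.18 in NIC-Prmt1 (0.0643) and -0.34 ± 0.18 in NIC-Carm1 (0.221). DESeq2 called Slc1a5 higher in NIC-Prmt1, where limma and edgeR did not. For each normalised read of Slc7a5 per kilobase there were 0.482 ± 0.202 of Slc1a5 in NIC-Prmt1, 0.110 ± 0.0165 in NIC-Carm1, 0.680 ± 0.00965 in NIC-Prmt6 and 0.121 ± 0.00553 in NIC.

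Slc1a4, which encodes the exchanger ASCT1 of alanine, serine, cysteine and threonine, had 519, 522 and 582 normalised reads in NIC-Prmt1, 977, 469 and 493 in NIC-Carm1, 503 and 440.4 in NIC-Prmt6, and 793 and 923 in NIC. NIC-Carm1 replicate 1 lay above NIC and every other PRMT library below it. The fall in NIC-Prmt6 (log2 -0.86 ± 0.29, limma adjusted p = 0.0418) did not hold with the libraries averaged (0.143) or without NIC replicate 1 or 2, NIC-Prmt1 replicate 2 or 3, or NIC-Prmt6 replicate 1 or 2 (range 9.16e-04 to 0.182).

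Among the carriers of glutamate and aspartate, Slc1a3, encoding GLAST, had 94.4, 60.1 and 64.1 normalised reads in NIC-Prmt1, 74.3, 84.7 and 78.6 in NIC-Carm1, 194 and 182 in NIC-Prmt6, and 76.5 and 80.6 in NIC. Only the NIC-Prmt6 libraries lay apart. Their log2 fold change was 1.25 ± 0.25 (limma, adjusted p = 0.00405), and the call ended only with the libraries averaged (0.0629, with a range of 8.17e-05 to 0.0629). Slc1a1, Slc1a2 and Slc1a7, which encode further glutamate carriers, passed in no comparison with NIC by limma, but edgeR called Slc1a7 higher in NIC-Prmt6 (limma log2 1.73 ± 0.65, adjusted p = 0.0617). Of the exons of Slc1a1, 31.9% overlap a gene on the other strand.

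The SLC38 family, sodium-coupled carriers of neutral amino acids and their lysosomal relatives, had 10 genes measured. In NIC-Prmt1 1 was higher and 2 lower, in NIC-Carm1 2 were higher and 1 lower, and in NIC-Prmt6 1 was higher and 2 lower. That is 3 of 10 in each, where 29.6% of all genes were called in NIC-Prmt1, 16.0% in NIC-Carm1 and 36.8% in NIC-Prmt6. With the libraries averaged, 1 was higher and 1 lower in NIC-Prmt1, 1 was higher in NIC-Carm1 and 1 was lower in NIC-Prmt6. Slc38a2, encoding SNAT2, was the most abundant. It had 11501, 10545 and 10084 normalised reads in NIC-Prmt1, 9199, 9371 and 9723 in NIC-Carm1, 16123 and 16442 in NIC-Prmt6, and 15102 and 10849 in NIC. The NIC libraries lay far apart, and the NIC-Carm1 call (log2 -0.44 ± 0.13, limma adjusted p = 0.0498) ended under 15 of the 21 alternatives.

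Slc38a6, encoding SNAT6, had 245, 202 and 272 normalised reads in NIC-Prmt1, 328, 325 and 329 in NIC-Carm1, 239 and 226 in NIC-Prmt6, and 156 and 142 in NIC. All PRMT libraries were above both NIC libraries, and those of NIC-Carm1 were highest. The log2 fold change was 1.13 ± 0.15 in NIC-Carm1 (limma, adjusted p = 0.00205, held under all 21 alternatives), 0.67 ± 0.15 in NIC-Prmt1 (0.0102) and 0.64 ± 0.17 in NIC-Prmt6 (0.0138). The NIC-Prmt1 call ended with 2 groups alone and without NIC replicate 2 (range 0.00169 to 0.0649). The NIC-Prmt6 call ended with the libraries averaged (0.126) and without NIC replicate 2 or either NIC-Prmt6 library (range 0.0056 to 0.126).

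Slc38a7, encoding SNAT7, which exports glutamine from the lysosome, had 599, 620.4 and 579 normalised reads in NIC-Prmt1, 813, 853 and 766 in NIC-Carm1, 551 and 569 in NIC-Prmt6, and 933 and 965 in NIC. The 5 libraries of NIC-Prmt1 and NIC-Prmt6 lay below the other 5. Its log2 fold change was -0.66 ± 0.09 in NIC-Prmt1 (limma, adjusted p = 0.00149) and -0.76 ± 0.10 in NIC-Prmt6 (6.58e-04), both past the threshold in all 21 alternatives. Slc38a9, encoding SNAT9, the lysosomal arginine sensor of the mTORC1 kinase, was higher in NIC-Carm1 (451, 531 and 500.4 normalised reads, against 327 and 330.2 in NIC). That call (log2 0.58 ± 0.13, adjusted p = 0.0157 in limma) ended with the libraries averaged (0.128) and without NIC replicate 1 or 2 or NIC-Carm1 replicate 2 or 3 (range 0.00141 to 0.128).

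Slc38a3, encoding SNAT3, a carrier of glutamine, varied widely, with 197, 1023 and 513 normalised reads in NIC-Prmt1, 1879.9, 1688 and 1627 in NIC-Carm1, 327 and 374 in NIC-Prmt6, and 986 and 1415 in NIC. The values of NIC-Carm1 were the highest and those of NIC-Prmt1 spread widely and overlapped NIC. Its fall in NIC-Prmt6 (log2 -1.75 ± 0.56, limma adjusted p = 0.0323) ended with the libraries averaged (0.155) and without any 1 of the NIC or NIC-Prmt6 libraries (range 0.0016 to 0.164). Slc38a1, encoding SNAT1, was lower in NIC-Prmt1 at a log2 fold change of -0.69 ± 0.19 (adjusted p = 0.0249 in limma), a call that ended with the libraries averaged (0.0582) and without NIC replicate 1 or 2 or NIC-Prmt1 replicate 1 or 3 (range 0.00643 to 0.158). The other 4 genes (Slc38a4, Slc38a5, Slc38a10 and Slc38a11) passed in no comparison with NIC by limma, edgeR or DESeq2.

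Of the SLC36 family, proton-coupled carriers of small amino acids, Slc36a2 (encoding PAT2) had 319, 236 and 178 normalised reads in NIC-Prmt1, 125, 118 and 115 in NIC-Carm1, 406 and 414 in NIC-Prmt6, and 166 and 173 in NIC. The 4 groups did not overlap, with NIC-Prmt6 highest and NIC-Carm1 lowest. It passed against NIC in NIC-Prmt6 (log2 1.27 ± 0.24, limma adjusted p = 0.00308, held under all 21 alternatives), and the log2 fold change was 0.48 in NIC-Prmt1 (0.113) and -0.50 in NIC-Carm1 (0.14). The 6 adipocyte markers, of which none was at 0 in any library, summed to 616 to 949 CPM in NIC-Prmt1, 344 to 379 in NIC-Carm1, 1124 to 1152 in NIC-Prmt6 and 256 to 329.8 in NIC. This sum was higher in NIC-Carm1 than in NIC. Most of it was Fabp4, which endothelium also expresses (607 to 937 CPM in NIC-Prmt1, 332 to 363 in NIC-Carm1, 1062 to 1093 in NIC-Prmt6 and 246 to 284 in NIC). Adipoq, the fat cell hormone adiponectin, stood at 0.789 to 2.27 CPM in NIC-Prmt1, 0.646 to 5.75 in NIC-Carm1, 8.79 to 9.95 in NIC-Prmt6 and 1.30 to 5.19 in NIC. In NIC-Carm1 replicates 2 and 3, Adipoq, Plin1, Cidec, Lep and Cfd all lay below both NIC libraries, as Slc36a2 did. In NIC-Carm1 replicate 1, Adipoq, Plin1 and Cidec lay above both NIC libraries, Cfd between them and Lep below. The part of adipocytes in the result was not tested. Slc36a1, the lysosomal carrier PAT1, was the most abundant of the family at 543 to 633 normalised reads in NIC-Prmt1, 609 to 757 in NIC-Carm1, 613 to 671 in NIC-Prmt6 and 484 to 544 in NIC. Its call in NIC-Carm1 (adjusted p = 0.0454 in limma) ended under 10 of the 21 alternatives. Slc36a4, encoding PAT4, was higher in NIC-Prmt6 (log2 0.85 ± 0.21, adjusted p = 0.011), until the libraries were averaged (0.0976) or NIC replicate 2 or either NIC-Prmt6 library was left out (range 0.00182 to 0.0976).

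The SLC43 family divided by gene. Slc43a3 (chr2:84936579-84958509, plus strand), whose product is known to carry purine nucleobases rather than amino acids, had 2407, 2029 and 2301 normalised reads in NIC-Prmt1, 1569, 1663 and 1512 in NIC-Carm1, 3532 and 3533 in NIC-Prmt6, and 1633 and 1762 in NIC. NIC-Prmt6 lay above NIC-Prmt1, and NIC-Prmt1 above the overlapping values of NIC-Carm1 and NIC. The log2 fold change was 1.06 ± 0.10 in NIC-Prmt6 (limma, adjusted p = 1.44e-04, held under all 21 alternatives) and 0.40 ± 0.10 in NIC-Prmt1 (0.0128), where the call ended with 2 groups alone and without NIC replicate 1 (range 0.0016 to 0.0797). The 6 endothelial markers, none of them at 0 in any library, summed to 1353 to 1862 CPM in NIC-Prmt1, 779.6 to 891 in NIC-Carm1, 1835 to 1852 in NIC-Prmt6 and 761 to 906 in NIC. The part of this in the result was not tested.

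Slc43a2, encoding LAT4, which lets branched-chain amino acids and phenylalanine cross the membrane, had 1501, 1563 and 1684 normalised reads in NIC-Prmt1, 3197, 2175 and 2036 in NIC-Carm1, 1128 and 1184 in NIC-Prmt6, and 2126 and 2140.1 in NIC. It was lower in NIC-Prmt6 at a log2 fold change of -0.88 ± 0.18 (limma, adjusted p = 0.00484, held under all 21 alternatives), and -0.43 in NIC-Prmt1 did not pass (0.0728). Its highest library was NIC-Carm1 replicate 1, the one with 40400.1 CPM of milk gene reads, as was that of Slc1a4; the part of milk reads was not tested. Slc43a1, encoding LAT3, had 168, 111 and 177 normalised reads in NIC-Prmt1, 102, 51.8 and 74.7 in NIC-Carm1, 148 and 157 in NIC-Prmt6, and 61.4 and 68.9 in NIC. It was higher in NIC-Prmt1 (log2 1.18 ± 0.30, adjusted p = 0.0164 in limma) and in NIC-Prmt6 (1.22 ± 0.33, 0.0162). Both calls ended without NIC replicate 1 or 2, and that of NIC-Prmt6 also without either of its own libraries or with these averaged (ranges 0.00186 to 0.0849 and 0.00311 to 0.0915).

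Of the 9 SLC6 carriers of amino acids and their derivatives, Slc6a6 (chr6:91684053-91759066, plus strand) encodes the taurine carrier TauT. Its libraries held 5881, 4107 and 4258 normalised reads in NIC-Prmt1, 2333, 3690.2 and 3514 in NIC-Carm1, 6680.2 and 6984 in NIC-Prmt6, and 2188 and 1815 in NIC. Every PRMT library exceeded both NIC libraries, with NIC-Carm1 replicate 1 just above them. The rise was 1.23 ± 0.21 on the log2 scale in NIC-Prmt1 (limma, adjusted p = 0.00319) and 1.78 ± 0.23 in NIC-Prmt6 (5.32e-04), both past the threshold in all 21 alternatives, and 0.64 ± 0.21 in NIC-Carm1 did not pass (0.0628). The fibroblast marker sums given above were also highest in NIC-Prmt6 and next in NIC-Prmt1; their part was not tested.

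Slc6a9, encoding the glycine carrier GlyT1, had 869, 466 and 578 normalised reads in NIC-Prmt1, 322, 436 and 461 in NIC-Carm1, 561 and 591 in NIC-Prmt6, and 252 and 279.5 in NIC. It was higher in NIC-Prmt1 (log2 1.21 ± 0.24, limma adjusted p = 0.00603, held under all 21 alternatives) and in NIC-Prmt6 (1.11 ± 0.26, 0.00931). The NIC-Prmt6 call ended with the libraries averaged (0.0787) or without either of them (range 5.68e-04 to 0.0787). Of its exons 27.8% overlap Ccdc24 on the other strand, so its reads are uncertain.

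The carriers that were lower were those of creatine and of a broad range of amino acids. Slc6a14 (chrX:21714896-21742355, plus strand) encodes a carrier of neutral and cationic amino acids. It had 71.1, 533 and 342 normalised reads in NIC-Prmt1, 373, 571 and 612 in NIC-Carm1, 366 and 298 in NIC-Prmt6, and 1301 and 1572 in NIC. No PRMT library reached the lower NIC library, and the NIC-Prmt1 libraries spread most widely. The fall was -2.60 ± 0.65 on the log2 scale in NIC-Prmt1 (limma, adjusted p = 0.016), -2.11 ± 0.71 in NIC-Prmt6 (0.0412) and -1.49 ± 0.65 in NIC-Carm1, which did not pass (0.146). Leaving out NIC replicate 1 or 2 ended the NIC-Prmt1 call (range 0.00386 to 0.0919), and the NIC-Prmt6 call ended with the libraries averaged (0.174) or without NIC replicate 1 or 2, NIC-Prmt1 replicate 3, NIC-Carm1 replicate 2 or 3, or NIC-Prmt6 replicate 1 or 2 (range 5.02e-04 to 0.174).

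Slc6a8, the creatine carrier, had 2141, 3726 and 2662 normalised reads in NIC-Prmt1, 3127, 3687 and 3683 in NIC-Carm1, 2468 and 2604 in NIC-Prmt6, and 4319 and 5124 in NIC. All PRMT libraries lay below both NIC libraries. The log2 fold change of -0.76 ± 0.19 in NIC-Prmt1 (limma, adjusted p = 0.017) did not pass with 2 groups alone or without NIC replicate 2 (range 0.00162 to 0.118). That of -0.89 ± 0.21 in NIC-Prmt6 (0.00975) did not pass with the libraries averaged (0.0842) or without NIC replicate 2 or NIC-Prmt6 replicate 1 (range 4.96e-04 to 0.0842). Slc6a7, Slc6a15, Slc6a17, Slc6a18 and Slc6a19 passed in no comparison with NIC by limma, edgeR or DESeq2.

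The 5 SLC6 carriers of GABA, betaine and monoamines are known mainly from nerve cells, kidney and liver. Slc6a4, encoding the serotonin carrier SERT, had 119.9, 99.4 and 125 normalised reads in NIC-Prmt1, 56.3, 90.5 and 82.4 in NIC-Carm1, 230.0 and 274 in NIC-Prmt6, and 48.2 and 48.1 in NIC. The 4 groups did not overlap, and NIC was lowest. Its log2 fold change was 2.36 ± 0.26 in NIC-Prmt6 (limma, adjusted p = 2.48e-04) and 1.23 ± 0.23 in NIC-Prmt1 (0.00515), both past the threshold in all 21 alternatives, and 0.63 ± 0.23 in NIC-Carm1 did not pass (0.0971). The 6 neuron and glia markers summed to 352 to 724 CPM in NIC-Prmt1, 80.4 to 182 in NIC-Carm1, 175 to 182 in NIC-Prmt6 and 265 to 321 in NIC, with Snap25 at 0 in NIC-Carm1 replicates 2 and 3. They were thus lower in NIC-Prmt6, where Slc6a4 was highest, than in NIC.

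Slc6a13, encoding the GABA carrier GAT2, had 116, 66.3 and 75.4 normalised reads in NIC-Prmt1, 14.6, 48.5 and 45.6 in NIC-Carm1, 35.3 and 37.8 in NIC-Prmt6, and 18.9 and 18.2 in NIC. Slc6a12, encoding the betaine and GABA carrier BGT1, had 30.8, 32.1 and 37.2 in NIC-Prmt1, 12.4, 25.5 and 26.2 in NIC-Carm1, 22.6 and 13.8 in NIC-Prmt6, and 10.4 and 5.2 in NIC. In both genes the 3 NIC-Prmt1 libraries lay above all others. The log2 fold change in NIC-Prmt1 was 2.11 ± 0.48 for Slc6a13 (limma, adjusted p = 0.0103) and 2.03 ± 0.45 for Slc6a12 (0.00925). Leaving out NIC replicate 2 ended both calls, and leaving out NIC replicate 1 ended that of Slc6a13 (ranges 2.67e-04 to 0.0584 and 0.00426 to 0.0738).

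Slc6a2, encoding the noradrenaline carrier NET, had 112, 571 and 138 normalised reads in NIC-Prmt1, 383, 577 and 554 in NIC-Carm1, 83.3 and 87.7 in NIC-Prmt6, and 314 and 866 in NIC. It was lower in NIC-Prmt6 (log2 -2.59 ± 0.68, limma adjusted p = 0.0148), a call that ended with the libraries averaged (0.101) and without NIC replicate 2 or either NIC-Prmt6 library (range 0.00164 to 0.121).

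**Figure D4:**
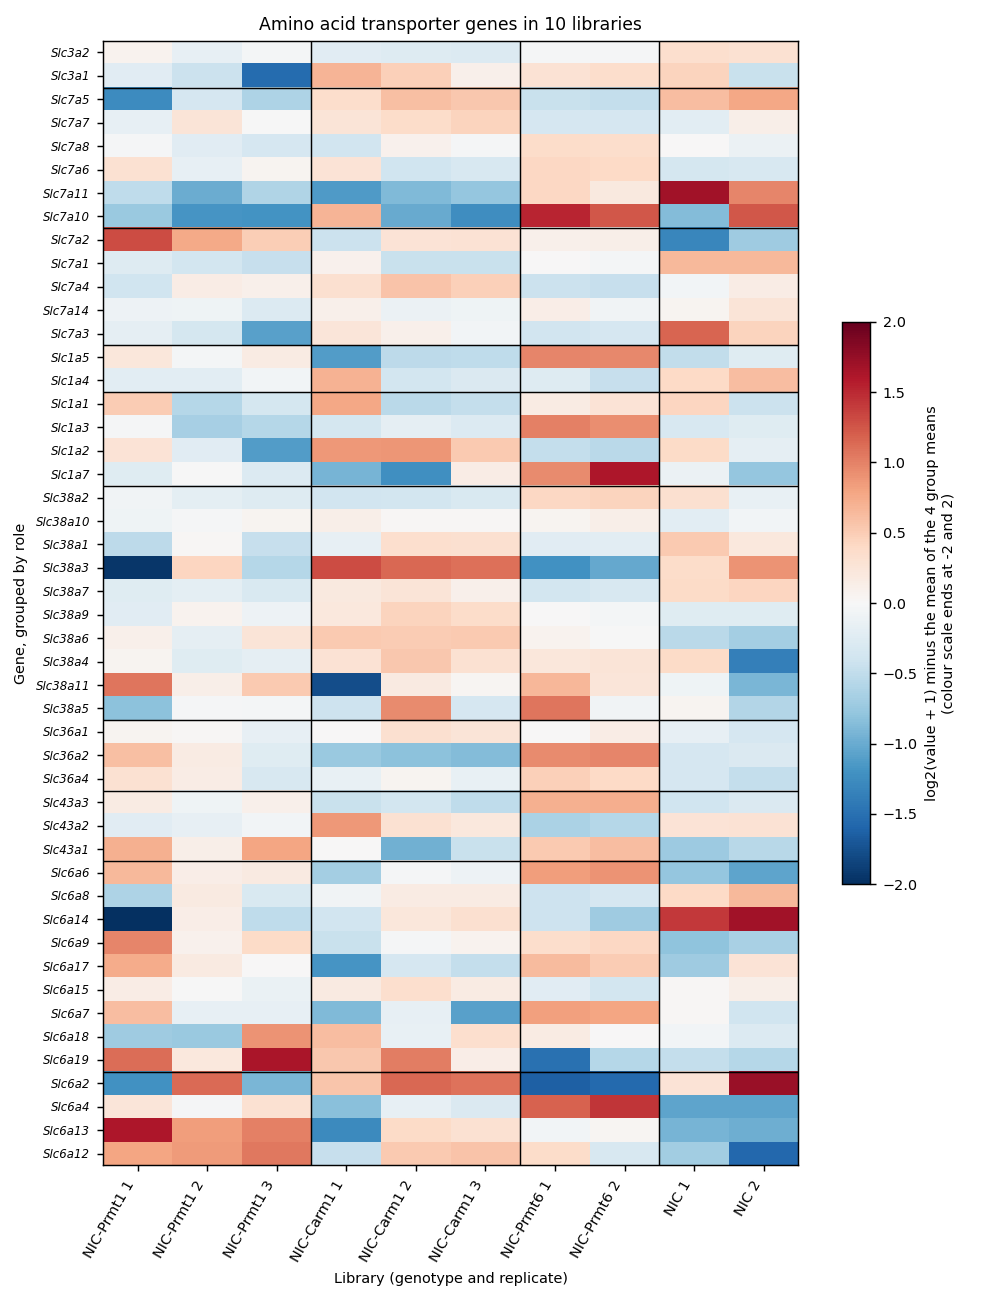
log2(value + 1) of 48 of the 49 amino acid transporter genes in the 10 libraries, each gene centred on the mean of its 4 group means and grouped by role, with lines between genotypes and roles; colours end at -2 and 2. Both columns of NIC-Prmt6 look much alike, as do NIC-Carm1 replicates 2 and 3, and Slc6a14 and Slc7a11 are red in both NIC columns.

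Some of these genes are neighbours on the chromosome. Slc6a13 and Slc6a12 lie 5.34 kb apart in the same direction on chromosome 6 and were both higher in NIC-Prmt1. Slc43a1 and Slc43a3 lie 73.0 kb apart on chromosome 2, and both were higher in NIC-Prmt1 and in NIC-Prmt6. Slc36a2 and Slc36a1 lie 19.3 kb apart on chromosome 11 in opposite directions, and only Slc36a2 passed in NIC-Prmt6 and only Slc36a1 in NIC-Carm1. Slc38a1 and Slc38a2, 44.5 kb apart on chromosome 15, shared no call either. Slc6a18 and Slc6a19, 1.72 kb apart on chromosome 13, had at most 24.8 and 15.5 normalised reads in any library.

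The PRMT genotypes were also set against each other with limma. Between NIC-Prmt1 and NIC-Carm1, 9 transporter genes were higher and 8 lower in NIC-Prmt1, 34.7% of the 49, against 26.8% of all genes. The share of all genes was 14.9% higher and 11.8% lower. With near-identical libraries averaged, 5 were called, 10.2% of the 49, against 8.71% of all genes. A called change of at least 2-fold was seen in 6 transporter genes, 12.2% of them, against 7.98% of all genes. Slc7a5 was lower in NIC-Prmt1 (log2 -1.23 ± 0.19, adjusted p = 0.00278) and Slc43a3 and Slc1a5 were higher (0.50 ± 0.09, 0.00382, and 0.82 ± 0.16, 0.00619). These 3 held under all 21 alternatives. Slc38a7 was lower (-0.43 ± 0.08, 0.00616), a call that ended only on averaging (0.0524, the highest of a range that began at 1.16e-04).

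Between NIC-Prmt1 and NIC-Prmt6, 6 transporter genes were lower in NIC-Prmt1 and 0 higher, 12.2% of the 49, against 7.49% of all genes (2.54% higher, 4.94% lower). A called change of at least 2-fold was seen in 3 of them, 6.12% of the 49, against 3.02% of all genes. At an unadjusted p under 0.05 limma put 7 genes higher, edgeR called 0 after adjustment and DESeq2 called 1. Slc43a3 (log2 -0.66 ± 0.10, adjusted p = 0.00509), Slc1a3 (-1.38 ± 0.22, 0.00786), Slc1a5 (-0.85 ± 0.18, 0.0204) and Slc6a4 (-1.13 ± 0.23, 0.0204) led by limma's adjusted p. None of the 6 calls held with the libraries averaged or without NIC-Prmt6 replicate 1 or 2. For the 4 genes named, adjusted p on averaging was 0.166, 0.195, 0.24 and 0.274. Averaging leaves a single NIC-Prmt6 library, which is assumed to vary like the other groups, and 0.134% of all genes were then called.

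Between NIC-Carm1 and NIC-Prmt6, 10 transporter genes were higher and 14 lower in NIC-Carm1, 49.0% of the 49, against 39.2% of all genes (18.4% higher, 20.9% lower). A called change of at least 2-fold was seen in 15, 30.6% of the 49, against 14.1% of all genes. On averaging 6 were called, 12.2% of them, against 8.15% of all genes. Slc43a3 (log2 -1.16 ± 0.10, limma adjusted p = 5.39e-05), Slc1a5 (-1.68 ± 0.18, 1.72e-04), Slc36a2 (-1.77 ± 0.21, 3.43e-04) and Slc6a4 (-1.73 ± 0.23, 6.04e-04) were lower in NIC-Carm1 under all 21 alternatives. Slc43a2 was higher in NIC-Carm1 under all of them too (1.06 ± 0.16, 0.00117). Slc7a5 was higher at 6391, 7641 and 7259 normalised reads in NIC-Carm1, against 3691 and 3584 in NIC-Prmt6 (0.96 ± 0.21, 0.00687), and the call ended on averaging (0.11, the highest of a range from 8.15e-05) and without NIC-Prmt6 replicate 2.

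Other genes of amino acid supply were read from lists. These lists were chosen with earlier results of these data known, so their counts are a description only. Of 24 genes of the ATF4 and amino acid response, 3 were higher and 13 lower in NIC-Prmt1, 1 higher and 12 lower in NIC-Carm1, and 2 higher and 14 lower in NIC-Prmt6, where 14.4%, 9.36% and 17.8% of all genes were lower. Their median log2 fold changes were -0.76, -0.68 and -0.80 in NIC-Prmt1, NIC-Carm1 and NIC-Prmt6. With the libraries averaged, 11, 5 and 9 were lower. Chac1, which breaks down glutathione, averaged 48.8 ± 14.2 normalised reads in NIC-Prmt1, 65.2 ± 22.6 in NIC-Carm1, 85.9 ± 8.73 in NIC-Prmt6 and 1074 ± 40.6 in NIC. Mthfd2, of mitochondrial folate metabolism, averaged 125 ± 11.7 in NIC-Prmt1, 133 ± 11.7 in NIC-Carm1 and 575 ± 64.1 in NIC (limma log2 -2.19 ± 0.16 and -2.10 ± 0.16). Trib3, a pseudokinase induced in this response, averaged 270.3 ± 3.26 in NIC-Prmt6 and 2010 ± 261 in NIC. Each of these changes passed in all 21 alternatives. Of the 4 kinases that start the response, Eif2ak2 (PKR) was higher in NIC-Carm1 (log2 0.44), a call that ended on averaging, and Eif2ak3 (PERK) was lower in all 3 genotypes (log2 -1.11, -0.73 and -0.90), with the calls of NIC-Carm1 and NIC-Prmt6 ended in some alternatives (highest adjusted p of 0.286 and 0.0889).

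Of 23 genes of lysosomal amino acid sensing by mTORC1, 4 were higher and 8 lower in NIC-Prmt1, 2 and 5 in NIC-Carm1, and 5 and 7 in NIC-Prmt6. Of all genes, 15.2% were higher and 14.4% lower in NIC-Prmt1, 6.65% and 9.36% in NIC-Carm1, and 19.0% and 17.8% in NIC-Prmt6. Fnip1, a partner of folliculin, was lower in NIC-Prmt1 (1312 ± 85.3 normalised reads, against 2422 ± 316 in NIC) and in NIC-Carm1 (1175 ± 126), and Nprl3 and Depdc5, of the GATOR1 inhibitor, were higher in NIC-Prmt6 (log2 0.79 ± 0.12 and 0.76 ± 0.12). Of 14 NRF2 targets and glutathione genes, 4 were higher and 5 lower in NIC-Prmt1, 1 and 4 in NIC-Carm1, and 1 and 3 in NIC-Prmt6, where the 4 of 14 called were a smaller share than the 36.8% of all genes. Gclc, the rate-limiting enzyme of glutathione synthesis, was higher in all 3 genotypes, at 2155 ± 195 normalised reads in NIC-Prmt1, 1643 ± 22.3 in NIC-Carm1 and 2723 ± 40.6 in NIC-Prmt6, against 1135 ± 3.29 in NIC, and Hmox1, heme oxygenase, was lower in NIC-Prmt1 and NIC-Carm1 (log2 -1.87 ± 0.30 and -2.27 ± 0.30). These calls of Fnip1, Nprl3, Depdc5, Gclc and Hmox1 held under all 21 alternatives, except that of Gclc in NIC-Carm1, which reached an adjusted p of 0.0707 in 1 of them. On averaging, 4 genes of mTORC1 sensing were higher and 5 lower in NIC-Prmt1, 1 and 2 in NIC-Carm1, and 2 and 2 in NIC-Prmt6, and of the NRF2 list 3 and 3 passed in NIC-Prmt1, 3 lower in NIC-Carm1 and 1 higher in NIC-Prmt6.

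Of 12 genes of glutamine and glutamate metabolism, 3 were higher and 5 lower in NIC-Prmt1 and 4 higher and 2 lower in NIC-Prmt6. In NIC-Carm1 limma, edgeR and DESeq2 each called 0, with 1 higher and 3 lower at an unadjusted p under 0.05 in limma. Glul, glutamine synthetase, was higher in NIC-Prmt1 (log2 2.29 ± 0.26, limma adjusted p = 6.67e-04, held under all 21 alternatives). Of 12 genes of arginine and polyamine metabolism, 3 were higher and 3 lower in NIC-Prmt1 and 2 higher and 2 lower in NIC-Prmt6, and in NIC-Carm1 3 were lower. The 4 of 12 called in NIC-Prmt6 were no larger a share than the 36.8% of all genes called there, against 29.6% of all genes in NIC-Prmt1 and 16.0% in NIC-Carm1. Arg1, arginase, was lower in all 3 genotypes (1724 ± 22.8 normalised reads in NIC-Prmt6, against 3581 ± 277 in NIC), and Nos2, which makes nitric oxide from arginine, was higher in NIC-Prmt1 and NIC-Prmt6 (251 ± 8.52 in NIC-Prmt6 and 54.1 ± 19.1 in NIC). For both genes the NIC-Prmt6 calls held under all 21 alternatives, and the others did not (highest adjusted p between 0.0719 and 0.112). On averaging, the glutamine list had 2 higher and 2 lower in NIC-Prmt1 and 1 lower in NIC-Prmt6, and the arginine list 1 and 1 in each of these genotypes. In NIC-Carm1 limma then called 0 of the arginine list, where the full fit had 3 lower at an unadjusted p under 0.05, and edgeR and DESeq2 called 3 lower.

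Of 12 genes that break down branched-chain amino acids, 1 was higher and 6 lower in NIC-Prmt6, and 2 were lower in NIC-Prmt1. Of all genes, 19.0% were higher and 17.8% lower in NIC-Prmt6, and the 2 of 12 in NIC-Prmt1 stand beside 14.4% of all genes lower there. In NIC-Carm1 limma, edgeR and DESeq2 each called 0, and 0 had an unadjusted p under 0.05 in limma. With the libraries averaged limma called none in any genotype, where at an unadjusted p under 0.05 the full fit had 4 lower in NIC-Prmt1, and 1 higher and 9 lower in NIC-Prmt6. Bckdk, the kinase that inhibits the branched-chain keto acid dehydrogenase, was lower in NIC-Prmt6 (log2 -0.96 ± 0.19, limma adjusted p = 0.00433, at most 0.0554 over the alternatives) and Bcat1, a transaminase of these amino acids, was higher (1.83 ± 0.39, 0.00569, at most 0.052). Of 17 transporters of amino acids and peptides from other families, 5 were lower in NIC-Prmt1, 1 was higher and 2 lower in NIC-Carm1, and 2 were higher and 2 lower in NIC-Prmt6. Those 4 of 17 were a smaller share than the 36.8% of all genes called in NIC-Prmt6, and 14.4% of all genes were lower in NIC-Prmt1 and 16.0% called in NIC-Carm1. With the libraries averaged limma called 4 lower in NIC-Prmt1 and 0 in NIC-Carm1 and NIC-Prmt6. At an unadjusted p under 0.05 the full fit of limma had 2 higher and 5 lower in NIC-Carm1 and 2 and 4 in NIC-Prmt6. There edgeR called 1 and 2 in NIC-Carm1, DESeq2 2 and 3, and both tools 2 and 2 in NIC-Prmt6. Slc15a3, a lysosomal carrier of histidine and peptides, was lower in NIC-Prmt1 under all 21 alternatives (299 ± 96.5 normalised reads, against 677 ± 30.4 in NIC). Slc16a10, a carrier of aromatic amino acids, was lower in NIC-Carm1 (93.1 ± 5.26, against 193 ± 38 in NIC), with a highest adjusted p of 0.111 over the alternatives.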

How the data were processed

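Values were deposited as a normalised signal per gene, 16290 genes in 10 libraries. Reads were processed against mm10 with TopHat2 2.0.10, HTSeq 0.6.0 and DESeq 1.18.0, per the submitters' processing notes; the sources used here do not give the annotation, strand setting or filter. In each library 100% of the deposited signal values were whole multiples of a step within 0.01, so the signal is the authors' read count divided by a size factor, and whole reads were recovered. A fold change is on the log2(value + 1) scale and understates changes of low genes.

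The main test was limma-trend 3.58.1 in R 4.3.3 on log2(value + 1), 15694 genes, all 10 libraries fitted together by genotype (4 means, residual df 6), Benjamini-Hochberg threshold 0.05, for 6 comparisons. It was run on simulated data with planted changes. The simulated libraries were independent, so that run does not show how near-identical libraries affect the test. Alternatives were edgeR 4.0.16 and DESeq2 1.42.0 on recovered reads, 2 compared groups alone, a replicate block, other scalings, pseudocounts (0.5 and 5) and filters, averaged near-identical libraries, and each library left out. The count of genes called by edgeR and DESeq2 is given in the closing section. Over 13 same-numbered pairs of libraries, deviations from the group means correlated at -0.13 to 0.10, so replicate numbers were not taken as pairs.

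Levels per kilobase use the union of exons in GENCODE M21. Members and lists were chosen with earlier results of these data known. Genes given with full values passed against NIC with at least a 2-fold change (at most 10 a comparison), led a comparison between PRMT genotypes (4 each) or were the most abundant of a family; others were named to complete a family. From other lists the 2 genes with the smallest adjusted p were eligible. Lists of cell type markers were summed as CPM of recovered reads. Of 49 genes, 33 had a RefSeq promoter window. Of the 49, 1 gene is counted in all totals but is not reported here.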

Additional observations from a re-analysis of the deposited data

How the results depend on the processing

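Of 96 calls of transporter genes over the 6 comparisons, 28 held under every alternative; of 2492 values under alternatives, 2146 kept direction and call, 322 lost the call, 18 gained one and 6 changed sign. edgeR called 9 higher and 9 lower in NIC-Prmt1 against NIC, 4 and 4 in NIC-Carm1 against NIC, and 13 and 11 in NIC-Prmt6 against NIC; DESeq2 called 10 and 8, 5 and 4, and 12 and 13. Averaging near-identical libraries gave 1 higher and 1 lower in NIC-Carm1 against NIC (4 and 4 in the full fit), 5 and 2 in NIC-Prmt6 against NIC (12 and 11), 3 and 2 in NIC-Prmt1 against NIC-Carm1 (9 and 8), 0 lower in NIC-Prmt1 against NIC-Prmt6 (6), and 1 and 5 in NIC-Carm1 against NIC-Prmt6 (10 and 14). It leaves fewer samples. With 2 compared groups alone 2 were higher in NIC-Carm1 against NIC, 5 higher and 4 lower in NIC-Prmt1 against NIC-Carm1, and 1 higher in NIC-Prmt1 against NIC-Prmt6; DESeq2 also gave 1 higher there. The replicate block gave 2 higher in NIC-Carm1 against NIC and 5 higher in NIC-Prmt1 against NIC-Carm1; the replicate numbers did not pair the samples. The cause of these changes was not tested.

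Leaving out 1 library gave 5 to 12 higher and 5 to 11 lower in NIC-Prmt1 against NIC (fewest without NIC replicate 1 or 2). It gave 1 to 8 higher and 3 to 5 lower in NIC-Carm1 against NIC (8 higher without NIC-Prmt1 replicate 1 or NIC-Carm1 replicate 1; 1 without NIC-Carm1 replicate 2 or 3; 2 without any 1 NIC or NIC-Prmt6 library). In NIC-Prmt6 against NIC it gave 6 to 14 and 3 to 13 (fewest higher without either NIC-Prmt6 library, and 3 to 6 lower without any 1 of these or the NIC libraries). Between PRMT genotypes it gave 4 to 11 and 4 to 11 in NIC-Prmt1 against NIC-Carm1 (4 higher without NIC-Prmt1 replicate 1, 5 without NIC-Prmt1 replicate 3, NIC-Carm1 replicate 3 or either NIC-Prmt6 library; 4 lower without NIC-Carm1 replicate 2 or 3, 5 without NIC-Prmt1 replicate 1). It gave 0 to 2 and 0 to 11 in NIC-Prmt1 against NIC-Prmt6 (2 higher without NIC-Prmt1 replicate 1 or NIC-Carm1 replicate 1; 0 lower without either NIC-Prmt6 library, 2 without NIC-Prmt1 replicate 3, 3 without NIC-Prmt1 replicate 2, 11 without NIC-Carm1 replicate 1), and 5 to 13 and 8 to 17 in NIC-Carm1 against NIC-Prmt6 (fewest without either NIC-Prmt6 library). The 6 values that changed sign were of Slc1a3 and Slc6a2 in NIC-Carm1 against NIC, where neither was called; other uncalled genes, not among the values counted here, changed sign too. Slc1a3 (log2 0.01 in the full fit) was -0.0123 on averaging, and ran between -0.039 (without NIC-Carm1 replicate 2; -0.027 without NIC replicate 1) and 0.054 with 1 library left out. Slc6a2 (-0.07) was 0.035 under the replicate block, and ran between -0.80 and 0.66 (without NIC replicate 2; 0.12 without NIC-Carm1 replicate 1) with 1 library left out. Depth limits mainly the 4 genes with 3 or fewer reads in a library.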
